A study of Rattus norvegicus with 6 samples.

Results

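Gstp1 encodes the pi-class glutathione transferase of the rat, also called placental glutathione transferase or GST-P. Each of the 6 count files holds 1 row for it, ENSRNOG00000018237, out of 43360 Ensembl gene IDs, and 16898 IDs with enough reads were tested, Gstp1 among them. The files give IDs without symbols, and the pairing of this ID with Gstp1 was taken as given and was not checked against an annotation here. Glutathione transferases join the thiol of glutathione to electrophiles, among them reactive products of carcinogens, and the pi-class enzyme is scarce in normal adult rat hepatocytes. It is abundant in preneoplastic foci and nodules of the rat liver, for which its staining is the classic marker. Its transcription is known to respond to AP-1 factors and to NRF2, the transcription factor of the oxidant response that the series title names and that KEAP1 holds in check, through a distal enhancer called GPEI.

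The livers came from male Fischer-344 rats, an inbred strain, and the design text lists 18 rats in 3 groups treated for 16 weeks. Control rats received the oral vehicle, 0.5% carboxymethyl cellulose. The HCC group received the DNA-alkylating carcinogen diethylnitrosamine (DEN) at 50 mg/kg weekly and then 2-acetylaminofluorene (2-AAF) at 25 mg/kg, a combination used to induce hepatocellular carcinoma (HCC). The HCC/NAC group received both carcinogens and, at a daily dose of 300 mg/kg, N-acetylcysteine (NAC), which supplies cysteine to glutathione synthesis. Each group has 2 poly(A) RNA libraries, for which, per the labels, the RNA of 5 animals in a group was pooled, so no value belongs to a single rat. The extraction protocol that gives this pooling calls the animals mice, whereas the design text calls them rats. The labels do not say whether the 2 pools of a group held different animals, and p-values measure only how far these libraries spread, a spread that may be technical. The libraries are of bulk liver, in which more cells with Gstp1 RNA and more Gstp1 RNA per cell cannot be told apart.

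The library totals ranged from 33917707 to 37717373 counts. Scaling factors of the trimmed mean of M-values (TMM), which allow for differences in RNA composition, were 0.91 to 0.92 in the control and HCC/NAC libraries and 1.18 to 1.19 in the HCC libraries. Levels are therefore given both as CPM (counts per 1000000 counts) on TMM-scaled totals and as CPM of the plain library total. The libraries also differed in their number of IDs with 1 to 5 counts: 336 and 3271 in control replicates 1 and 2, 2847 and 3364 in HCC, and 632 and 708 in HCC/NAC. The HCC and HCC/NAC libraries thus stood apart in this respect, and its part in the comparison with NAC was not tested. Gstp1 lay far above that range in all 6 libraries. File names of the control libraries share 1 prefix, and those of the 4 libraries from carcinogen-treated rats share another. If that prefix marks separate handling, it cannot be told apart from the carcinogens; both groups of the comparison with NAC carry the same prefix.

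The sequence next to the Gstp1 start site is shown because it carries the kind of element through which the AP-1 and NRF2 families act. It is the RefSeq window of 250 bases before the start, at chr1:210769706-210769955 on the minus strand of GRCr8, and it does not reach the distal enhancer. The build to which the reads were aligned is not given in the sources used here. Capitals mark the matches to the motifs searched on both strands.
Gstp1 promoter: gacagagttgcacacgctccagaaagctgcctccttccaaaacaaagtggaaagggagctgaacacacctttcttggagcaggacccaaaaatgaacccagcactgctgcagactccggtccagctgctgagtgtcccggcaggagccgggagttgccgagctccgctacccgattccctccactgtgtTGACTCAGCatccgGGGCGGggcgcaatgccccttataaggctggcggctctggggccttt
The AP-1 site (TGANTCA) matched once, as TGACTCA, 61 to 55 bases before the start. The core of the antioxidant response element (TGACNNNGC), the site of NRF2 with small MAF partners, matched once, as TGACTCAGC, from 61 to 53 bases before the start, so that it overlapped the AP-1 match. The GC box (GGGCGG), the site of SP1, matched once, 47 to 42 bases before the start. The exact TATA box letters TATAAA had 0 matches. Variants of these letters were not searched, and the printed window holds tataag near its end, so the 0 does not show that a TATA box is absent. Of 33469 RefSeq promoters cut to the same length, 6.34% held the AP-1 letters, 10.1% the element core, 30.5% the GC box and 12.9% the TATA letters, and 70 promoters (0.209%) held the AP-1 site, the element core and the GC box together. That combination was made of the motifs that Gstp1 itself matched, with overlapping AP-1 and element matches, so its share is only a description. A match describes letters only and no binding was measured. RefSeq also lists a neighbouring gene, Gstp3, and 4 pseudogenes named after Gstp1 or Gstp. Reads that such copies share with Gstp1 may have been assigned or dropped in ways that are not stated.

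Gstp1 was far lower in control liver than in carcinogen-treated liver, where it was among the most abundant messages. Control livers gave 549 and 580 Gstp1 counts in replicates 1 and 2, HCC livers 211566 and 195421, and HCC/NAC livers 132688 and 131679. By read count, which is not corrected for transcript length, Gstp1 ranked 5762nd and 5484th among all IDs in control replicates 1 and 2. In those libraries 15646 and 19066 IDs had at least 1 count. Gstp1 ranked 20th in both HCC libraries and 29th and 28th in the HCC/NAC libraries. Both control libraries were lowest, both HCC/NAC libraries intermediate and both HCC libraries highest, on either CPM scale. How many of all tested IDs separate by group in this way was not counted, so the order is only a description.

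**Figure D1:**
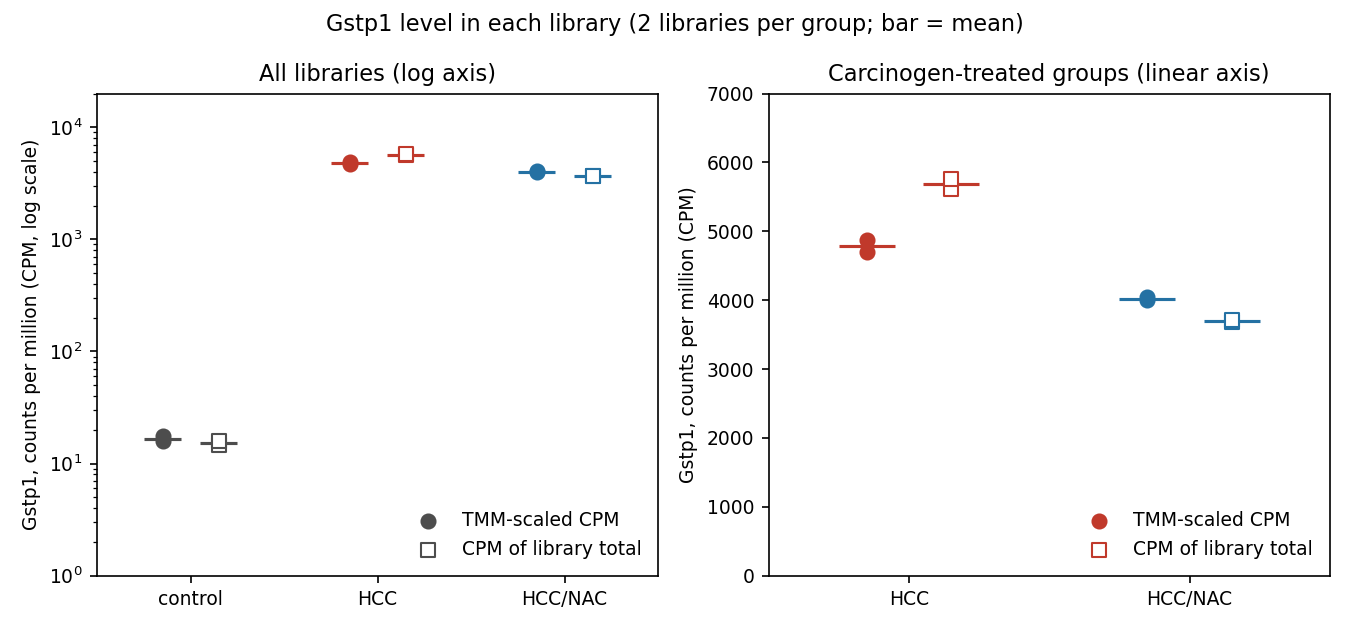
Gstp1 level in each library, as CPM on TMM-scaled totals (filled circles) and as CPM of the library total (open squares), with group means as bars. The left panel has a log axis and shows all 3 groups; the right panel has a linear axis from 0 and shows that HCC/NAC lay below HCC on both scales, with a wider gap on library totals.

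In HCC livers Gstp1 took 0.561% of all counts in replicate 1 (95% exact Clopper-Pearson interval 0.559% to 0.563%) and 0.576% in replicate 2 (0.574% to 0.579%). The HCC/NAC shares were 0.368% (0.366% to 0.370%) and 0.371% (0.369% to 0.373%). These intervals cover counting error only, since reads are not independent molecules. The replicates of HCC differed 1.039-fold on the TMM scale, more than the 1.006-fold that counting error allows at 95%. Those of HCC/NAC differed 1.014-fold on that scale, where counting error allows 1.008-fold. On library totals the HCC replicates differed 1.027-fold. The HCC/NAC replicates differed 1.0081-fold there, close to the 1.0077-fold of counting error. Control replicates differed 1.10-fold, within the 1.12-fold that counting error allows at their 549 and 580 reads. Counting error was thus largest in the control libraries.

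HCC livers were set against control livers to measure how far Gstp1 differed under the carcinogens. Gstp1 rose from 15.9 and 17.5 CPM in the control libraries to 4697 and 4877 CPM in the HCC libraries. The group means were 16.7 ± 1.1 and 4787 ± 128 CPM (SD, n = 2 each), a 287-fold difference with a 95% interval of 266-fold to 309-fold. On the log2 scale the difference was 8.16 ± 0.05 (SE; adjusted p = 5.11e-17, edgeR quasi-likelihood test with Benjamini-Hochberg adjustment over all tested IDs). Every HCC library exceeded every control library by 268-fold to 307-fold. Calls were common in this comparison, with 34.8% of tested IDs changed and 17.0% higher, so the size of the change says more than the call. With 2 libraries a group, an exact two-sided permutation test of 1 gene cannot go below p = 0.333.

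Only 104 of the 16898 tested IDs had a larger fitted fold change, and all were far less abundant in HCC livers than Gstp1. Of these, 95 had 0 counts in both control libraries and 103 had 0 in at least 1, where a fitted fold change depends on the prior count. None (0 IDs) reached 1 CPM in control, and the highest HCC level among them was 110 CPM, against 4787 CPM for Gstp1. Some were not scarce in treated livers: Gstp1 ranked 11th by fold change among the 7485 IDs with a mean of at least 10 CPM. The place of Gstp1 among all tested IDs moved with the control libraries. With all 6 libraries 99.4% of tested IDs had a lower fold change, and without control replicate 2 the share was 97.8%. Among the 12523 IDs with at least 1 CPM in control Gstp1 had the largest fold change, but the next ID, at 281-fold, differed from it by less than the standard error. That cut leaves out all 104 IDs with a larger fold change, so this first place is only a description. Only 23 of these IDs, Gstp1 included, rose by a fitted 16-fold or more.

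No other message at or above the HCC level of Gstp1, or with a mean of at least 1000 CPM, rose as far as Gstp1. The 19 other IDs with an HCC level at or above that of Gstp1 were at most 1.45-fold higher than in control, with a median ratio of 0.858. Among the 104 IDs with a mean of at least 1000 CPM, the ID after Gstp1 was 16.7-fold higher, and the median ID had a log2 fold change of -0.57. With a mean of 16.7 CPM in control, Gstp1 is in both sets only through the treated groups. Its first place in them is therefore only a description. In CPM, Gstp1 had the 2nd largest gain of all tested IDs, with 4770 CPM or 3.75% of the CPM gained by all IDs that were higher in HCC.

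**Figure D2:**
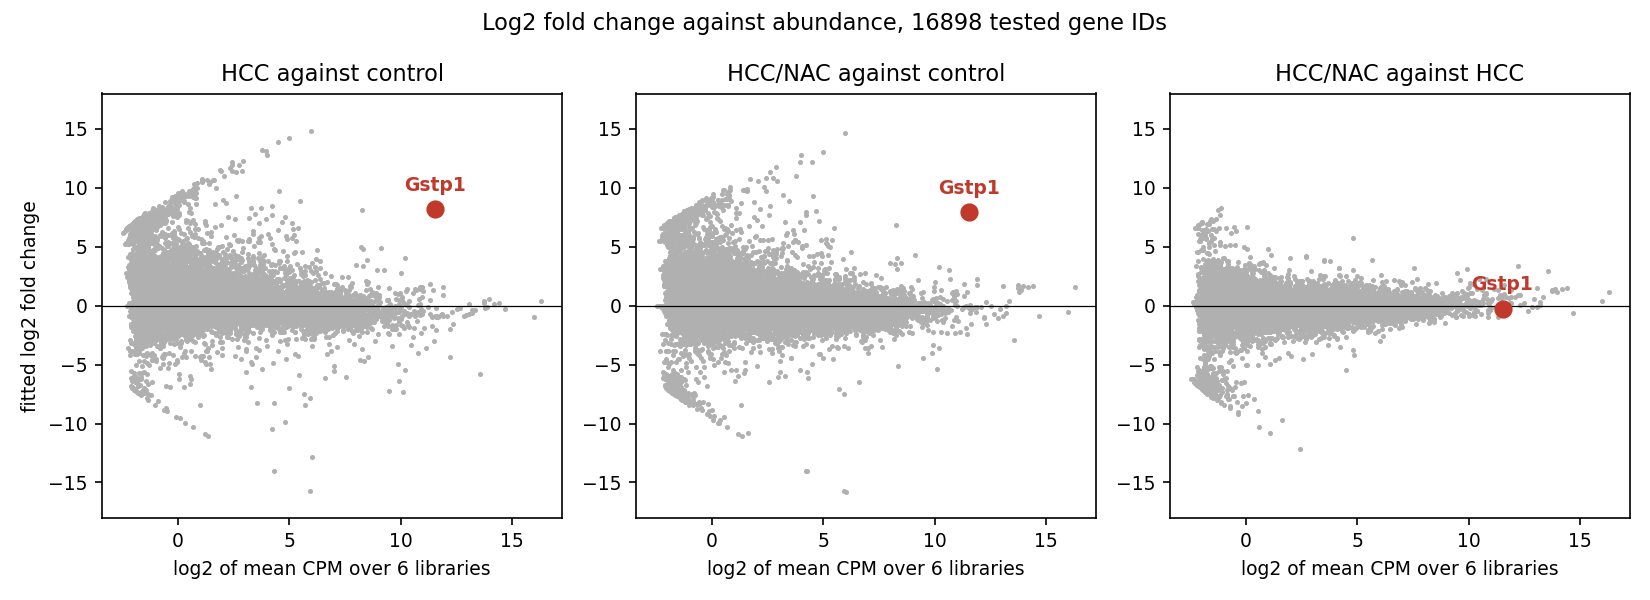
Fitted log2 fold change (vertical axis) of each tested gene ID against the log2 of its mean CPM (horizontal axis) in the 3 comparisons, with Gstp1 in red. Gstp1 lies apart at high abundance in both comparisons with control, at 8.16 and 7.91, whereas IDs with larger values have lower means. In HCC/NAC against HCC Gstp1 lies just below 0, at -0.25.

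Livers given NAC with the carcinogens were set against control livers to ask whether Gstp1 was still raised. Gstp1 stood at 3996 and 4051 CPM in the HCC/NAC libraries, a mean of 4024 ± 39 CPM (SD, n = 2). It was 241-fold higher than in control (95% interval 224-fold to 259-fold), or 7.91 ± 0.05 on the log2 scale (SE; adjusted p = 1.98e-16, edgeR). The lowest ratio between any pair of libraries was 228 and the highest 255. In this comparison 46.2% of tested IDs were called and 21.3% were higher. Gstp1 again had the largest fold change among IDs with at least 1 CPM in control, and here the next ID was 118-fold higher. The cut again left out every ID with a larger fold change than Gstp1, which ranked 124th among all tested IDs. The control libraries are shared with the comparison of HCC and control, so the values stand side by side and are not independent. Among the IDs of at least 1000 CPM, a set that holds Gstp1 only through the treated groups, the next was 9.59-fold higher. In CPM the gain of Gstp1, 4007 CPM, was only the 11th largest of all tested IDs here. It made up 1.18% of the CPM gained by all IDs that were higher in HCC/NAC.

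Livers of carcinogen-treated rats with and without NAC were then compared directly. Gstp1 was lower with NAC, at 4024 ± 39 against 4787 ± 128 CPM (SD, n = 2 each). That is 84.1% of the HCC level, with a 95% interval of 79.7% to 88.6%, and the pairs of libraries gave 81.9% to 86.3%. The log2 fold change was -0.25 ± 0.03 (SE; adjusted p = 1.96e-04, edgeR). Of all tested IDs 27.7% were called and 16.5% were lower. The decrease was therefore larger than the spread between libraries and small beside the rise over control: 4007 CPM of excess over control remained in HCC/NAC livers, where HCC livers had 4770 CPM.

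The size of this decrease rested on the scaling, because the HCC libraries had other TMM factors than the HCC/NAC libraries. On plain library totals Gstp1 fell from 5685 ± 108 to 3691 ± 21 CPM (SD, n = 2 each), to 64.9% of the HCC level, a log2 fold change of -0.62. That scaling also moved the median of all tested IDs to -0.42, whereas the median was -0.05 with TMM. Relative to the median ID, Gstp1 was lower by a log2 difference of -0.20 under both scalings. With TMM factors taken from IDs of at least 10 CPM, a setting chosen after seeing the data, the log2 fold change was -0.16 and Gstp1 stood at 89.6% of the HCC level. The rank of Gstp1 among the tested IDs does not rest on such factors: 38.7% of them had a lower log2 fold change.

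**Figure D3:**
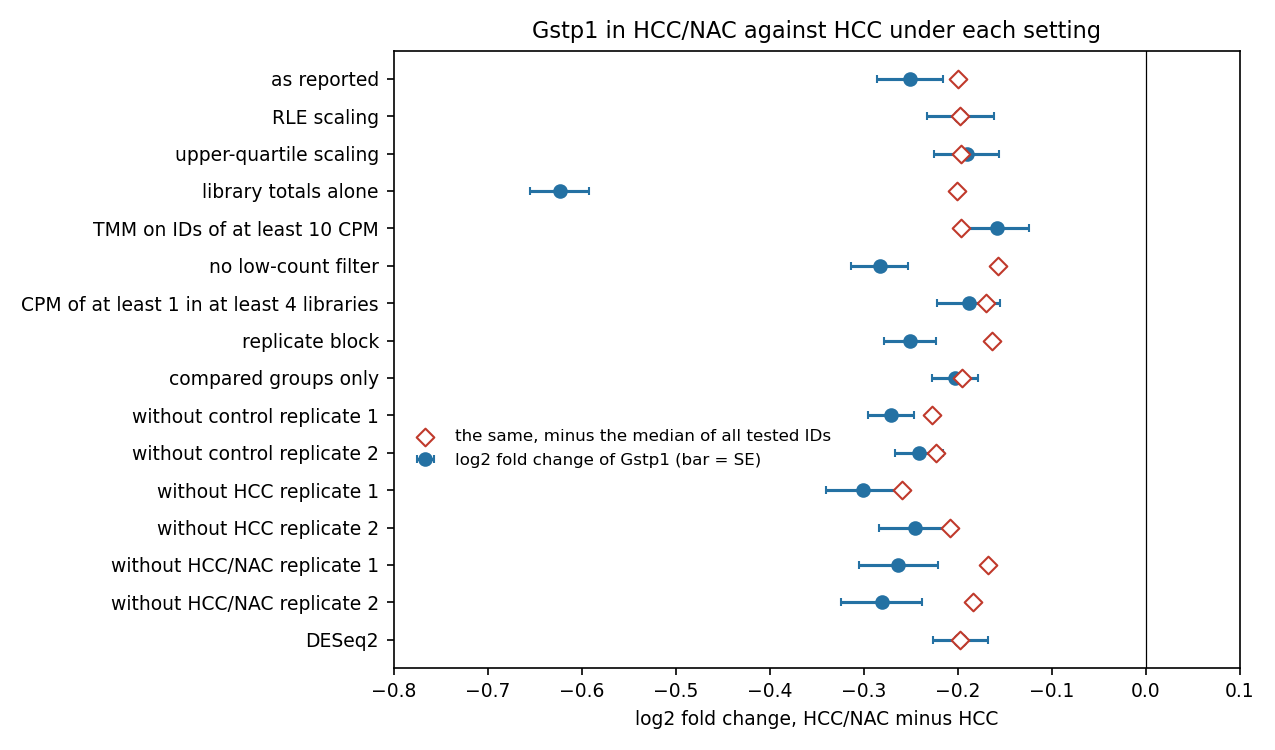
Log2 fold change of Gstp1 in HCC/NAC against HCC (blue circles, bars are the SE) under the reported analysis and 15 alternatives, with the same value minus the median of all tested IDs (red diamonds). All values lie below 0; the circles range from -0.62 to -0.16 and the diamonds from -0.26 to -0.16.

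Most abundant messages were higher with NAC on the TMM scale, and Gstp1 was lower. Of the 104 IDs with a mean of at least 1000 CPM, 65 were called higher with NAC at the adjusted p of 0.05, 30 were called lower and 9 were not called, and the median log2 fold change was 0.41. With RLE, upper-quartile and abundant-ID TMM scaling, 72 or 73 were called higher and 25 to 27 lower, with medians of 0.46 to 0.50. On plain library totals, which allow for no difference in composition, 48 were called higher and 47 lower, with a median of 0.04. Gstp1 ranked 85th of the 104 from the top, with 19 IDs lower, a rank that a change of scaling factors hardly touches because it shifts all IDs alike. In CPM its loss of 763 CPM was the 10th largest of all tested IDs.

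**Figure D4:**
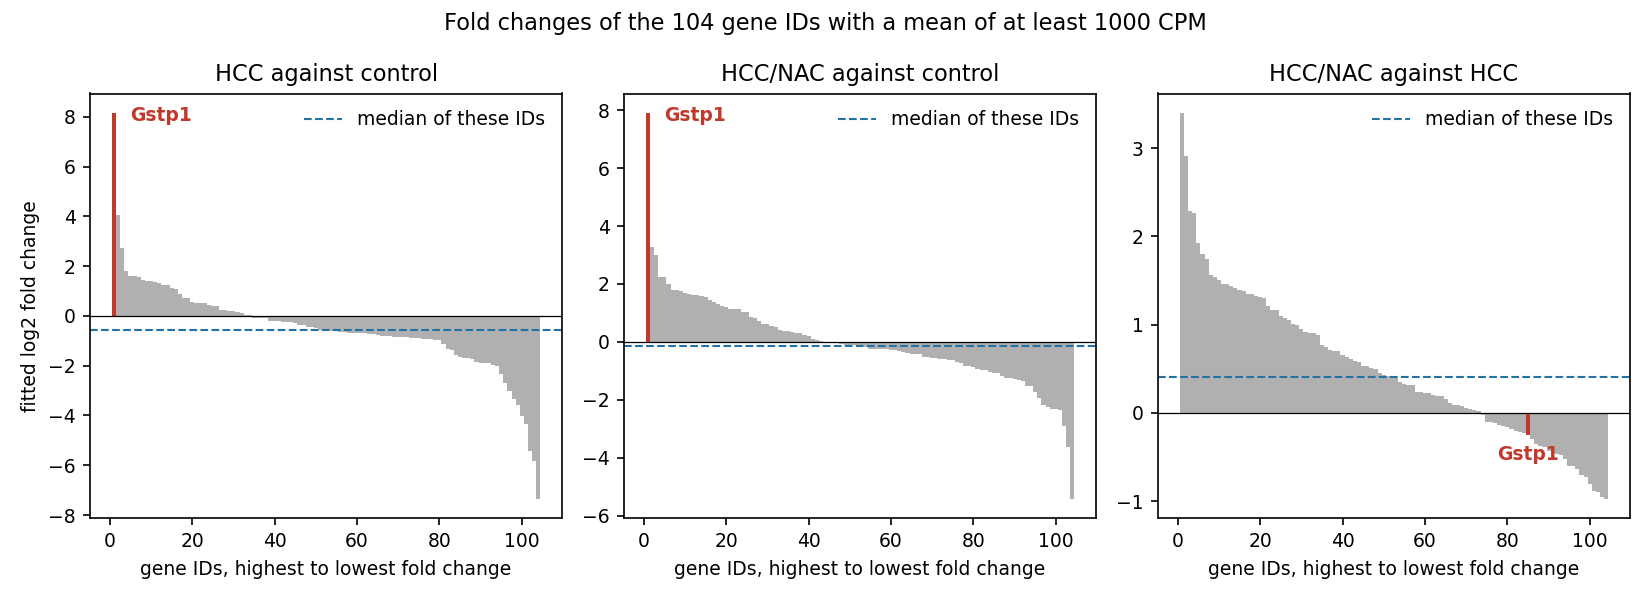
Fitted log2 fold changes (vertical axis) of the 104 gene IDs with a mean of at least 1000 CPM, ordered from highest to lowest in each comparison, with Gstp1 in red and the median of these IDs as a dashed line. Gstp1 is the highest bar in both comparisons with control and ranks 85th in HCC/NAC against HCC, below a median of 0.41. It is in this set only through its level in the treated groups.

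The IDs whose pattern was most like that of Gstp1 were sought among 7484 other IDs with a mean of at least 10 CPM, by the Euclidean distance between centred log2 CPM profiles over the 6 libraries (prior count 2). The median ID lay at a distance of 9.48, and 2 IDs lay nearer than 1. ENSRNOG00000091386 was nearest, at 0.98 (Pearson r = 0.999 across the 6 libraries, which form 3 groups). It had 0 counts in both control libraries, 1250 and 808 counts in the HCC libraries and 726 and 855 in the HCC/NAC libraries. Its HCC level of 24.0 ± 5.4 CPM (SD, n = 2) was at least 270-fold higher than in control, taking 3 counts in each control library as the limit. Few IDs had 1 to 5 counts in control replicate 1 (336, against 3271 in replicate 2). Whether 0 counts there mean fewer than 3 reads was not tested, and such bounds rest on it. Unlike Gstp1, ENSRNOG00000091386 was not called with NAC against HCC, at 0.01 ± 0.19 on the log2 scale (SE; adjusted p = 0.989, edgeR). Whether the 2 genes differ there was not tested.

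ENSRNOG00000013658 was the second, at a distance of 0.98 (r = 0.998). It had 0 counts in both control libraries, 1407 and 1187 in the HCC libraries and 529 and 548 in the HCC/NAC libraries. Its level was 30.4 ± 1.1 CPM in HCC (SD, n = 2), at least 343-fold above the same limit, and 16.4 ± 0.66 CPM in HCC/NAC (SD, n = 2), at least 185-fold above it. With NAC it fell to 53.9% of its HCC level (log2 fold change -0.89 ± 0.15, SE; adjusted p = 0.00125, edgeR). Both IDs were far less abundant than Gstp1 and, unlike it, had no control reads, so their distance depends on the prior count. Both were picked for their likeness to Gstp1 over these same 6 libraries. Their fold changes, bounds and p-values are therefore only a description of the IDs picked. The files do not pair them with symbols, and the 2 distances differ by less than the rounding shown.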

How the data were processed

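The authors deposited raw counts per Ensembl gene ID for 6 libraries. FastQC, STAR, featureCounts and edgeR are named, with no versions, per the submitters' processing notes. Each column comes from a STAR alignment, per the file headers. The sources used here give no genome build, annotation release or strand setting. Deposited counts went unchanged into edgeR 4.0.16 (R 4.3.3). After filterByExpr and TMM scaling, 1 quasi-likelihood model with a mean per group was fitted to all 6 libraries, leaving 3 residual degrees of freedom. The threshold was a Benjamini-Hochberg adjusted p of 0.05 over the 16898 tested IDs. Standard errors and intervals come from the quasi-likelihood F statistic. The method was tested on simulated counts. The alternatives were RLE, upper-quartile and no scaling, TMM on abundant IDs, DESeq2 1.42.0, other low-count filters, the replicate number as a block, the compared groups only, and leaving out each library.

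The member and the lists were chosen with earlier results of these data known. The rule for other named genes, without symbols, was the 2 tested IDs of at least 10 CPM nearest to Gstp1 over the 6 libraries. The RefSeq table of 47357 genes held 0 Ensembl IDs, so the lists of glutathione transferases, glutathione synthesis, foci enzymes, Gstp1 regulators, NRF2 targets and cell type markers were not analysed here, and the labelled tissue was not checked against its markers.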

Additional observations from a re-analysis of the deposited data

How the results depend on the processing

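Gstp1 kept its direction and its side of the threshold in all 3 comparisons under each of 15 alternatives. Its log2 fold change ranged from 8.09 to 8.54 in HCC against control, from 7.82 to 8.12 in HCC/NAC against control and from -0.62 (library totals) to -0.16 in HCC/NAC against HCC, where the adjusted p ranged from 7.90e-19 to 0.00400. Leaving out 1 library at a time gave 8.09 to 8.30, 7.82 to 8.06 and -0.30 to -0.24; a group left with 1 library is then assumed to vary like the others. The numbers of all IDs called, 5883, 7807 and 4686, stayed within 1.5 times of these values except without HCC replicate 1, where HCC/NAC against HCC had 3093; leaving out 1 library gave 3093 to 5075 there. On library totals the calls split into 5398 higher and 1536 lower in HCC against control and 783 higher and 5811 lower in HCC/NAC against HCC, where TMM gave 2876 and 3007, and 1899 and 2787. TMM on abundant IDs gave 3510 and 2426 in HCC against control, 4673 and 3206 in HCC/NAC against control (3599 and 4208 as reported), and 2372 and 2262 in HCC/NAC against HCC; upper-quartile scaling gave 3269 and 2609, 4291 and 3536, and 2194 and 2406. The cause was not tested. The labels do not say that a replicate number pairs libraries, and the replicate differences of the groups correlated across IDs at -0.01 to 0.01. With the replicate block the Gstp1 values were 8.16, 7.91 and -0.25, with 5982, 7650 and 4861 IDs called. ENSRNOG00000091386, uncalled in HCC/NAC against HCC at 0.01, was also uncalled but negative on library totals (-0.37) and without a low-count filter (-0.026), and from -0.23 to 0.23 when 1 library was left out, lowest without HCC replicate 2 and highest without HCC replicate 1. The share of tested IDs with a lower fold change than Gstp1 fell without control replicate 2. It went from 99.4% to 97.8% in HCC against control and from 99.3% to 97.0% in HCC/NAC against control. The alternatives for the gene lists were not run, since no ID had a symbol. Only the control value of Gstp1, with 549 and 580 reads, is limited by depth.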
